A study of Mus musculus with 24 samples.

Results

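The brain arrays of this series compared mice heterozygous for the Kctd1L27N substitution (het below) with wild type mice (wt below), all of strain C3HeB/FeJ at 18.5 weeks of age. They are 8 of the 24 arrays of the series, 4 het and 4 wt, chosen by the tissue and genotype in the labels. Every array held total RNA of the brain of 1 mouse, and kidney and heart of the same 8 mice make up the rest. Het brains carried the array numbers 2, 6, 7 and 8 of the tissue, and wt brains the numbers 1, 3, 4 and 5, so array number and genotype overlap in part. The design text speaks of 4 mutant and 5 wild type mice, and arrays of 4 wild type mice were analysed here. The labels give neither the sex of the mice nor the part of the brain taken, and het animals keep 1 wild type allele.

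KCTD1 belongs to a family of proteins that share a BTB domain, through which they assemble into oligomers and many of them bind the ubiquitin ligase scaffold cullin 3. It is known as a repressor of AP-2 transcription factors, and it has been linked to Wnt/beta-catenin signalling. Other members of the family sit on GABAB receptors or bind G protein beta-gamma subunits, which makes signalling genes of neurons a natural group to look at in this tissue. No probe was named Kctd1 in the annotation used here, so the level of the targeted gene was not analysed here and the genotype labels could not be checked against it.

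Each array reported 25697 probes. Between 12384 and 12979 probes were above the negative controls (detection p under 0.05) in het brains, against 12358 to 12929 in wt brains, with means of 12598 ± 261 and 12626 ± 243 (SD, n = 4 each; exact two-sided permutation p = 0.914, where 70 splits allow 0.0286 at the least). A total of 12608 probes were above background on at least 4 of the 8 arrays and were tested; 11903 of them had a gene symbol, and they stood for 8929 genes. Arrays correlated at 0.9889 to 0.9928 within a genotype and at 0.9888 to 0.9927 between genotypes over the tested probes, so the ranges within and between genotypes were nearly the same. Levels below are log2 values after background correction and quantile normalization within brain, and a difference is always het minus wt on that scale. Levels of different probes were not compared as amounts of RNA, because probes differ in how strongly they bind. Levels were used to pick 1 probe per gene, to group probes by brightness and to sum the lists.

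No single gene passed the test between het and wt brains. Of the 12608 probes, 0 (0%) had an adjusted p under 0.05 with limma, and the smallest adjusted p was 0.379. Without adjustment, 895 probes (7.1%) had a limma p under 0.05, 411 higher in het (3.26%) and 484 lower (3.84%). The 4 het values lay wholly above the 4 wt values at 234 probes (1.86%) and wholly below them at 261 (2.07%), together 495 (3.93%). These shares are the background for every count given for a gene group below. The median difference over all probes was −0.00098, with a range of −0.74 to 0.85.

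The intervals bound the difference on the normalized scale, which compresses differences in RNA at probes near background. The 95% interval of the difference lay within 1.5-fold either way at 12338 of 12608 probes (97.9%), and within 2-fold at 12605 (100% after rounding), with a median SE of 0.10 and a median half-width of 0.22. That share was 97.1% of 5663 probes at a mean level below 6, 98.0% of 4176 probes at 6 to 8 and 99.3% of 2769 probes above 8, so brighter probes were the more tightly measured. Only 6 probes had an estimate past 1.5-fold and 0 were past 2-fold. The 1 higher probe was Mup2, a major urinary protein, and the 5 lower ones belonged to Hoxa5, Mbp, Hoxb5, Abat and Kcnip4. They are named here after their values were seen. Mup2 rested on het replicate 4, at 6.97, while the other 7 arrays lay between 4.33 and 5.21.

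**Figure D1:**
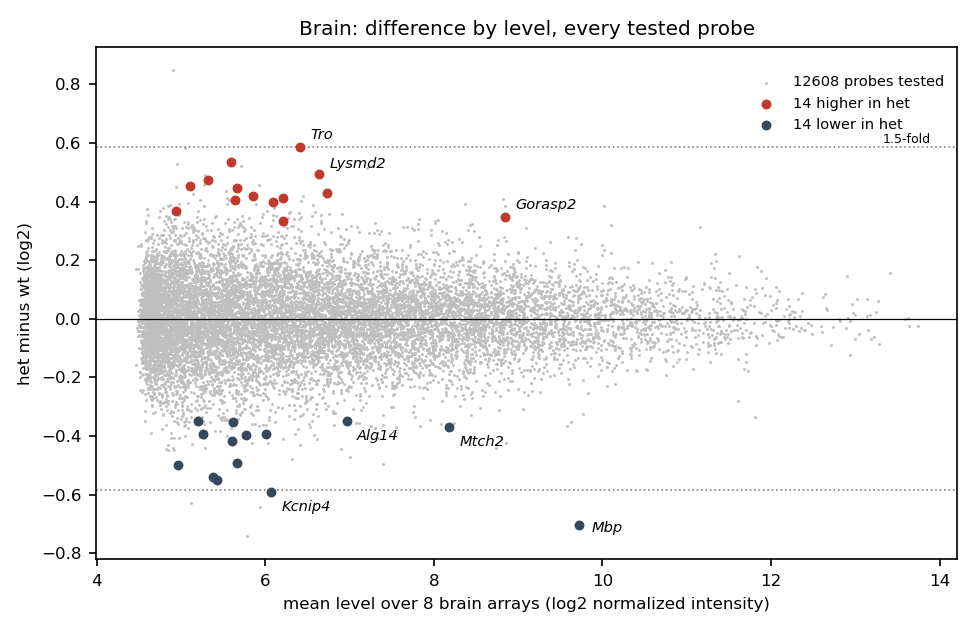
Difference between het and wt brains (y axis, het minus wt, log2) against the mean level over 8 arrays (x axis, log2 normalized intensity) for the 12608 tested probes (grey), with the 14 leading probes higher in het in red and the 14 lower in het in dark blue, and dotted lines at 1.5-fold. The cloud narrows as the level grows, and the Mbp probe stands apart among probes with a level above 8.

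Because nothing passed, the leading probes were taken by rank: 14 in each direction with the smallest limma p among probes detected on all 8 arrays whose groups did not overlap, 1 per gene. The lower set spanned differences of −0.71 to −0.35 and the higher set 0.33 to 0.58, with adjusted p-values of 0.379 to 0.462. Being chosen for separation, these probes are described here and not offered as changed genes. Fitted beside the array number, 14 of 14 lower and 14 of 14 higher probes kept their sign, at −0.54 to −0.28 and 0.31 to 0.66. The sizes depended on the background correction: without it the lower set lay at −0.64 to −0.10 and the higher set at 0.097 to 0.29, with every probe but those of Mbp, Mtch2 and Gorasp2 smaller by over 1.5 times.

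First in rank was a probe of Mbp, which encodes myelin basic protein, a main structural protein of the myelin sheath made by oligodendrocytes. It read 9.70, 9.38, 9.09 and 9.29 in the het arrays, against 10.16, 9.97, 10.10 and 10.06 in the wt arrays. Every wt value lay within a narrow band, and all het values lay below it with a wider spread, so the difference was −0.71 (SE 0.12, adjusted p = 0.379, limma). With the array number in the fit the difference was −0.54. In bulk tissue, fewer cells of a type and less RNA per cell cannot be told apart. Some other settings called this probe: without het replicate 1 it differed by −0.82 (adjusted p = 0.0211, limma), in a set where every het array had a later number than every wt array, and 3 other settings gave adjusted p-values of 0.00428 to 0.0301, within a range of 0.00428 to 0.712 over all settings tried. The array carries a pair of further Mbp probes that did not separate the groups. The second read 12.79, 13.06, 12.82 and 12.85 in the het arrays, against 12.98, 12.98, 13.06 and 12.99 in the wt arrays, a difference of −0.12 (SE 0.09, adjusted p = 0.822, limma). Another read 7.55, 7.21, 7.51 and 7.45 in the het arrays, against 7.22, 7.36, 7.22 and 7.43 in the wt arrays, a difference of 0.12 (SE 0.10, adjusted p = 0.844, limma). Groups overlapped at both of these probes, and the 3 probes of this gene thus disagree in size and in sign. The transcript form that each of them reads was not resolved here.

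Kcnip4, whose protein binds Kv4 potassium channels and sets their gating, read 5.92, 5.71, 5.98 and 5.48 in the het arrays, against 6.63, 6.31, 6.39 and 6.13 in the wt arrays. All het values lay under all wt values, and the difference was −0.59 (SE 0.13, adjusted p = 0.453, limma), or −0.42 beside the array number. With the spread estimated over all 24 arrays of the series, the Kcnip4 probe had an adjusted p of 0.0149 and the Tro probe described below one of 0.00734 (limma). Slc5a7, the high-affinity choline transporter that feeds acetylcholine synthesis in cholinergic neurons, read 5.13, 5.10, 4.85 and 5.20 in the het arrays, against 5.50, 5.38, 5.50 and 5.47 in the wt arrays. Its difference was −0.39 (SE 0.09, adjusted p = 0.462, limma), and het replicate 3 was its lowest array. Flrt3, a synaptic adhesion protein that binds latrophilins, averaged 5.11 ± 0.30 in het and 5.65 ± 0.09 in wt brains (SD, n = 4 each), a difference of −0.54. The other Flrt3 probes differed by −0.01 and 0.06. Chp1, a calcium-binding partner of sodium/proton exchangers, averaged 5.15 ± 0.26 in het and 5.70 ± 0.13 in wt brains (SD, n = 4 each), a difference of −0.55, while its other probe differed by 0.01.

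Kdsr, which catalyses an early step of sphingolipid synthesis, read 5.94, 5.78, 5.85 and 5.68 in the het arrays, against 6.22, 6.17, 6.20 and 6.23 in the wt arrays, a difference of −0.39 (SE 0.08, adjusted p = 0.453, limma). The wt values of Kdsr spanned less than the gap to the highest het value. Cyb5a, the membrane electron carrier cytochrome b5, averaged 5.42 ± 0.21 in het and 5.91 ± 0.16 in wt brains (SD, n = 4 each), a difference of −0.49. Atic, an enzyme of purine synthesis, differed by −0.50 at this probe and by −0.01 and −0.15 at its other probes. Mtch2, a protein of the mitochondrial outer membrane, read 8.13, 8.03, 8.03 and 7.79 in the het arrays, against 8.37, 8.41, 8.39 and 8.28 in the wt arrays, a difference of −0.37 (SE 0.09, adjusted p = 0.462, limma), against −0.05 and 0.01 at its other probes. Alg14, which acts in the assembly of N-glycan precursors, differed by −0.35, and the poly(A) polymerase gene Tent2 by −0.35. Tom1l2, a trafficking adaptor, the zinc finger gene Zfp410 and an unnamed probe, ILMN_3066763, completed the 14 at −0.40, −0.35 and −0.42.

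Tro, encoding the adhesion-related protein trophinin, led the probes that were higher in het. It read 6.62, 6.86, 6.61 and 6.74 in the het arrays, against 6.02, 5.94, 6.19 and 6.34 in the wt arrays. The lowest het value stood above the highest wt value, and the difference was 0.58 (SE 0.10, adjusted p = 0.386, limma), or 0.50 beside the array number. Its other probes differed by 0.23 and 0.09 with overlapping groups. Eif2ak3, the endoplasmic reticulum stress kinase PERK, read 5.60, 5.44, 5.47 and 5.71 in the het arrays, against 5.19, 5.20, 5.09 and 4.85 in the wt arrays, a difference of 0.47 (SE 0.10, adjusted p = 0.453, limma). Erf, a transcriptional repressor of the ETS family, read 5.15, 5.04, 5.07 and 5.25 in the het arrays, against 4.63, 4.86, 4.73 and 4.82 in the wt arrays, a difference of 0.37 (SE 0.09, adjusted p = 0.462, limma). A second Erf probe also separated the groups, with 4.98, 5.12, 5.23 and 5.06 in the het arrays, against 4.68, 4.74, 4.96 and 4.79 in the wt arrays and a difference of 0.31 (SE 0.09, adjusted p = 0.511, limma). Erf was the only leading gene with another probe at an unadjusted p under 0.05.

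Gorasp2, which encodes a Golgi stacking protein, read 8.99, 8.94, 9.04 and 9.10 in the het arrays, against 8.68, 8.66, 8.80 and 8.55 in the wt arrays, a difference of 0.35 (SE 0.09, adjusted p = 0.462, limma). Its 3 other probes differed by 0.17, −0.06 and −0.09. Lysmd2 averaged 6.88 ± 0.17 in het and 6.39 ± 0.15 in wt brains (SD, n = 4 each), a difference of 0.49. Pkig, an inhibitor of protein kinase A, averaged 5.84 ± 0.14 in het and 5.44 ± 0.09 in wt brains (SD, n = 4 each), a difference of 0.40, against 0.03 at its other probe. Elfn2, a postsynaptic adhesion protein that binds metabotropic glutamate receptors, differed by 0.40, and L3mbtl2, a Polycomb-type chromatin protein, by 0.45. R3hdm2 and the epoxide hydrolase gene Ephx4 differed by 0.43 and 0.33 (a second Ephx4 probe by −0.05), and 4 probes without a gene symbol by 0.41 to 0.54. Counting over both directions, 12 leading genes had 20 further tested probes, of which 13 shared the sign of the leading probe, 1 had an unadjusted p under 0.05 and 0 were called.

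**Figure D2:**
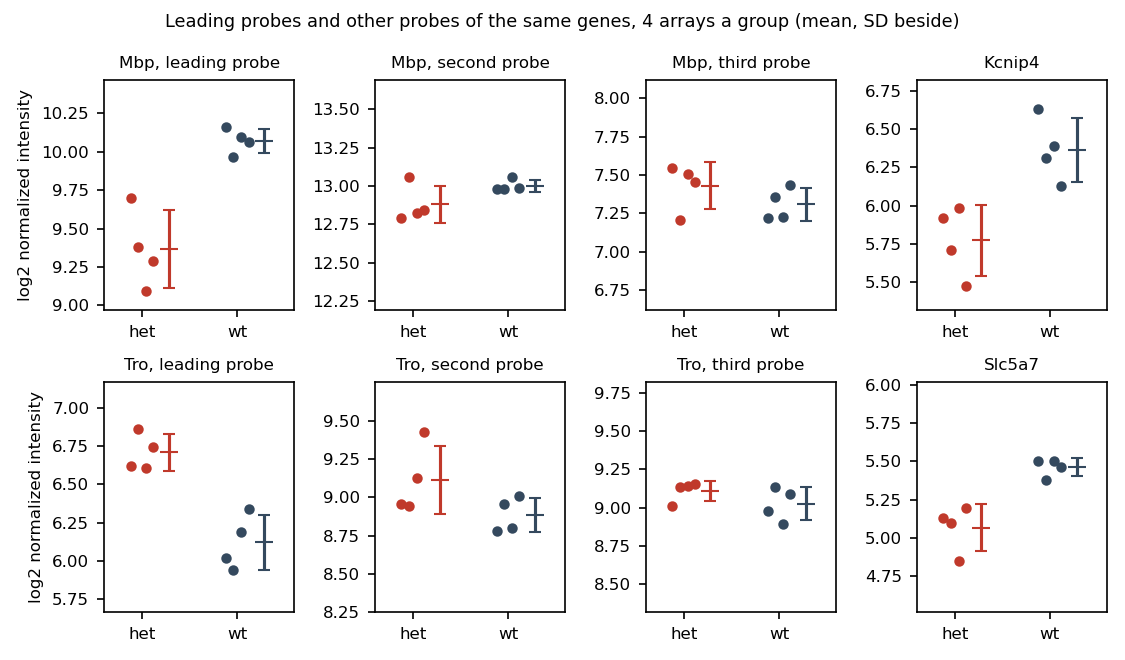
Log2 normalized intensity (y axis) in each of 4 het (left, red) and 4 wt (right, dark blue) brains, with the mean and SD beside the points, for 3 probes of Mbp, 3 of Tro, and the leading probes of Kcnip4 and Slc5a7. Every panel spans 1.5 log2 units. Groups separate at the leading probes and overlap at the other probes of Mbp and Tro.

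Genes of the KCTD family, the relatives of the mutated gene, differed little between the genotypes. Here and in the lists below, each gene is counted once, by its tested probe with the highest mean level. Of 25 family genes, 18 had a probe and 13 were above background in enough brains to be tested, of which 0 were called and 0 had an unadjusted p under 0.05. Their median difference was −0.02, all 13 intervals lay within 1.5-fold, and 4 estimates were positive and 9 negative. Kctd15, the closest relative of Kctd1 and itself an AP-2 inhibitor in zebrafish, read 5.88, 5.70, 5.94 and 5.74 in the het arrays, against 5.57, 5.65, 5.69 and 5.88 in the wt arrays, a difference of 0.12 (SE 0.09, adjusted p = 0.848, limma). Wt replicate 4 of Kctd15 lay among the het arrays, and the other wt arrays lay below all of them.

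Kctd12, an auxiliary subunit of GABAB receptors, averaged 6.76 ± 0.25 in het and 6.78 ± 0.22 in wt brains (SD, n = 4 each), a difference of −0.02. The other GABAB subunit genes of the family could not be followed: the Kctd8 probe was above background on 0 brain arrays, and Kctd16 was not among the tested genes. Kctd5, whose protein targets G protein beta-gamma subunits to cullin 3, averaged 7.77 ± 0.14 in het and 7.76 ± 0.05 in wt brains (SD, n = 4 each), a difference of 0.02. A second Kctd5 probe averaged 6.48 ± 0.08 in het and 6.64 ± 0.06 in wt brains (SD, n = 4 each), a difference of −0.16 (adjusted p = 0.742, limma), with every het value below every wt value. Kctd10 and Tnfaip1, a related pair that act as cullin 3 adaptors for RhoA, differed by −0.06 and −0.07. Kctd6 and Kctd21, which form part of a group that antagonizes Hedgehog signalling, differed by −0.12 and −0.07. Kctd6 held the most negative estimate of the family. Kctd4, Kctd14, Kctd2, Kctd9, Kctd20 and Shkbp1 lay between −0.06 and 0.11.

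The cullin 3 ligase that KCTD proteins recruit was likewise level. All 15 of its genes with a probe were tested, and 0 had an unadjusted p under 0.05 in either direction, against a median difference of −0.04. The scaffold Cul3 averaged 9.77 ± 0.13 in het and 9.85 ± 0.07 in wt brains (SD, n = 4 each), a difference of −0.07, and the RING subunit Rbx1 differed by −0.12. Substrate adaptors spanned −0.16 for Keap1, the sensor of oxidative stress, to 0.20 for Klhl13. Further Keap1 probes differed by 0.14, 0.03 and 0.02, and a further Rbx1 probe by 0.04. Of the AP-2 factors, which KCTD1 is known to repress, Tfap2a and Tfap2b were tested. Tfap2b read 5.53, 5.72, 6.02 and 5.82 in the het arrays, against 5.74, 5.91, 5.86 and 6.06 in the wt arrays, a difference of −0.12 (SE 0.11, adjusted p = 0.872, limma), and a pair of further Tfap2b probes differed by 0.15 and 0.02. Tfap2a lay close to background, at 4.66 ± 0.19 in het and 4.66 ± 0.20 in wt brains (SD, n = 4 each). Tfap2d and Tfap2e were not detected on any brain array.

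**Figure D3:**
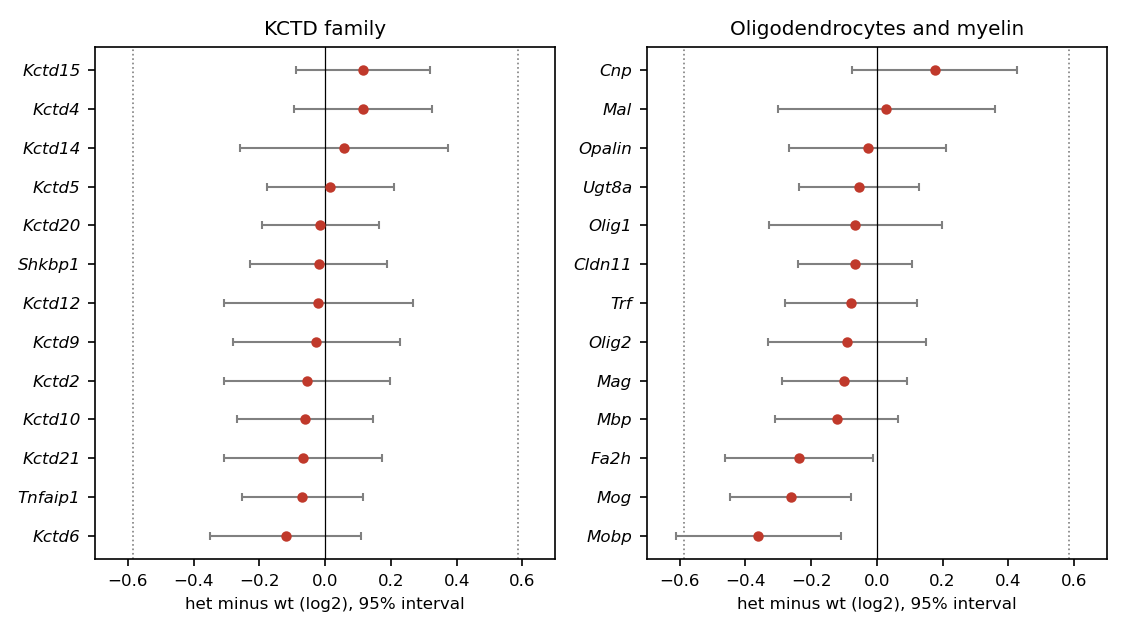
Difference between het and wt brains (x axis, het minus wt, log2) with its 95% interval for the 13 tested genes of the KCTD family (left) and the 13 tested genes of oligodendrocytes and myelin (right), by the brightest probe of each gene; dotted lines mark 1.5-fold. All 13 KCTD intervals stay inside the lines and span 0, while Fa2h, Mog and Mobp have intervals below 0.

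Wnt/beta-catenin genes showed no shift as a group. Of 55 genes 51 had a probe and 29 were tested, with 1 higher and 1 lower at an unadjusted p under 0.05, 0 called, and a median difference of 0.02. Among receptors, Lrp6, the Wnt co-receptor, read 5.08, 5.04, 4.95 and 5.19 in the het arrays, against 5.42, 5.58, 5.16 and 5.29 in the wt arrays, a difference of −0.29 (SE 0.10, adjusted p = 0.545, limma). Among ligands, Wnt5b differed by 0.22 and Wnt5a by −0.23, so the related pair pointed in opposite directions. Of the intracellular genes, a second probe of Ctnnb1, which encodes beta-catenin, averaged 7.46 ± 0.20 in het and 7.14 ± 0.10 in wt brains (SD, n = 4 each), a difference of 0.33 with non-overlapping groups, but the probe that stood for the gene differed by 0.10. Tcf7l2, a beta-catenin partner strongly used in thalamus, differed by 0.15. The summed level of the tested genes, on the linear scale of normalized intensity, was 4898 to 5452 in het and 4896 to 5028 in wt brains.

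GABAB receptors couple through inhibitory G proteins to potassium channels and to adenylyl cyclase. Of 16 tested genes of the receptor, its G proteins and its channels, 1 was higher and 0 lower at an unadjusted p under 0.05, 0 were called, and the median difference was −0.0018. Kcnj6, a subunit of the coupled potassium channel, read 5.59, 5.51, 5.66 and 5.75 in the het arrays, against 5.28, 5.43, 5.30 and 5.48 in the wt arrays, a difference of 0.25 (SE 0.09, adjusted p = 0.555, limma). Its highest wt value reached just under the lowest het value, and its other probes differed by 0.09 and 0.06. Gabbr1, a receptor subunit, read 7.54, 7.27, 7.22 and 7.05 in the het arrays, against 7.70, 7.53, 7.32 and 7.33 in the wt arrays, a difference of −0.20 (SE 0.12, adjusted p = 0.765, limma), which was 0.0045 beside the array number. Gnb1, a G protein beta subunit, differed by −0.17. Among 20 tested cAMP genes 1 was higher and 0 lower, with a median of 0.02. That gene was Adcy9, an adenylyl cyclase, which averaged 6.15 ± 0.13 in het and 5.80 ± 0.41 in wt brains (SD, n = 4 each), a difference of 0.36. Adcy6 and Creb1 differed by 0.14 and 0.17. Over all 30 cAMP probes 1 was higher and 1 lower at an unadjusted p under 0.05. The lower one, named after its values were seen, was a further Pde4a probe at −0.44 with groups apart. It was detected in 2 het and 4 wt brains, and a pair of other Pde4a probes differed by 0.07 and 0.01.

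Genes of glutamate receptors and the postsynaptic density held 2 higher and 2 lower of 23 tested at an unadjusted p under 0.05, 0 called, and a median difference of −0.03. Grik5, a kainate receptor subunit, averaged 6.62 ± 0.30 in het and 6.22 ± 0.22 in wt brains (SD, n = 4 each), which made the difference 0.40 (SE 0.14, adjusted p = 0.56, limma). Grik4, its partner among the high-affinity kainate subunits, averaged 4.78 ± 0.23 in het and 5.08 ± 0.15 in wt brains (SD, n = 4 each), a difference of −0.30. The pair thus differed in sign. Grm8, a presynaptic metabotropic receptor, read 4.99, 5.25, 5.40 and 5.14 in the het arrays, against 5.49, 5.60, 5.41 and 5.50 in the wt arrays, a difference of −0.31 (SE 0.10, adjusted p = 0.522, limma). Camk2b, a subunit of the postsynaptic calcium/calmodulin kinase, differed by 0.17, with groups apart, and Camk2a by 0.17. The summed level of the tested genes was 12670 to 13470 in het and 11930 to 12340 in wt brains, so the groups did not overlap, although the median of the list was negative. It was among 2 of 41 lists whose sum was higher in every het array than in every wt array.

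Inhibitory and presynaptic genes held no member at that threshold by 1 probe per gene, and a few by further probes, which are named here after their values were seen. Of 17 tested GABA genes 0 had an unadjusted p under 0.05, and the median difference was 0.02. Gabrb1 and Gabra3, subunits of the GABAA receptor, differed by −0.20 and −0.22, and the interneuron peptide gene Vip by 0.19. Over all 22 GABA probes 1 was higher, Gabrd (a GABAA receptor subunit) at 0.30, and 1 lower, Calb2 (the interneuron calcium buffer calretinin) at −0.33 with groups apart. Of 25 tested genes of synaptic vesicle release 0 had an unadjusted p under 0.05, with 18 positive and 7 negative differences and a median of 0.05. Sv2b, a vesicle glycoprotein, had the largest difference of the list at 0.39. It read 9.39, 8.71, 8.92 and 9.11 in the het arrays, against 8.97, 7.86, 8.99 and 8.77 in the wt arrays. Wt replicate 2 was its lowest array. Over all 35 vesicle probes 0 were higher and 2 lower, Syt11 (a synaptotagmin) at −0.50 and Pclo (the active zone protein piccolo) at −0.31.

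Of 36 tested voltage-gated channel genes 1 was higher and 2 were lower at an unadjusted p under 0.05, and 0 were called, with a median of 0.04. Differences were positive for 22 and negative for 14 genes. Het values lay wholly above wt values in 4 of 36 and wholly below in 1, against 1.86% and 2.07% of all probes. Over all 45 probes of these genes 1 was higher and 6 were lower, through further probes of Kcnh2, Cacnb2, Kcnab1 and Cacnb4 at −0.27, −0.28, −0.36 and −0.28. Beside Kcnip4 above, Kcna6, a Kv1 channel subunit, differed by −0.34. Kcnip3, a relative of Kcnip4 also known as the calcium sensor DREAM, read 8.04, 7.80, 7.74 and 8.00 in the het arrays, against 7.44, 7.67, 7.53 and 7.71 in the wt arrays, a difference of 0.31 (SE 0.10, adjusted p = 0.522, limma). Het and wt values of Kcnip3 did not overlap, and those of Kcnip4 did not overlap in the opposite direction. Among 24 tested genes of monoamine and acetylcholine transmission 1 was higher and 2 were lower, 0 called, with a median of 0.0021. Drd2, the dopamine D2 receptor, averaged 4.96 ± 0.23 in het and 5.27 ± 0.21 in wt brains (SD, n = 4 each), a difference of −0.31, and Hrh3, the presynaptic histamine receptor, differed by 0.23. Of 20 tested neuropeptide genes Gal, encoding galanin, was the only one at an unadjusted p under 0.05, with 5.02, 5.08, 5.51 and 5.05 in the het arrays, against 4.59, 4.57, 4.91 and 5.02 in the wt arrays and a difference of 0.39 (SE 0.13, adjusted p = 0.538, limma).

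Most myelin genes had a lower mean in het brains, and none was called. Of 20 oligodendrocyte and myelin genes 16 had a probe and 13 were tested, of which 0 were higher and 3 lower at an unadjusted p under 0.05 (3.84% of all probes were lower by that measure) and 0 were called. Differences were negative for 11 of 13 genes, with a median of −0.08. Mbp is counted here by its second probe above. Mobp, a protein of compact myelin, read 8.24, 7.82, 7.87 and 7.67 in the het arrays, against 8.19, 8.36, 8.36 and 8.13 in the wt arrays, a difference of −0.36 (SE 0.12, adjusted p = 0.522, limma). Mog, a protein of the outer myelin surface, read 8.65, 8.61, 8.73 and 8.62 in the het arrays, against 8.88, 9.00, 9.01 and 8.78 in the wt arrays, a difference of −0.26 (SE 0.09, adjusted p = 0.522, limma). All het values of Mog lay under all wt values, whereas het replicate 1 of Mobp lay among the wt arrays. Further Mobp probes differed by 0.06 and −0.02, and a further Mog probe by −0.37.

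Fa2h, which hydroxylates the fatty acids of myelin lipids, averaged 8.05 ± 0.19 in het and 8.29 ± 0.12 in wt brains (SD, n = 4 each), a difference of −0.24. Beside the array number, Mobp, Mog and Fa2h differed by −0.20, −0.25 and −0.16. Mag and Cldn11, of myelin too, differed by −0.10 and −0.07, and the lineage factors Olig1 and Olig2 by −0.07 and −0.09. Cnp differed by 0.18 in the other direction, while a further Cnp probe differed by −0.10. The summed level was 16030 to 18310 in het and 17740 to 18570 in wt brains, so the groups overlapped. Of 5 tested precursor genes 1 was lower, Cspg4, at −0.24 and close to background, and the list had a median of −0.09.

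Markers of other cell types in the brain gave few differences. Of 13 tested microglial genes 1 was higher and 0 lower at an unadjusted p under 0.05, with a median of 0.03. Siglech, a microglial lectin, read 5.44, 5.67, 5.54 and 5.50 in the het arrays, against 5.34, 5.19, 5.29 and 5.00 in the wt arrays, a difference of 0.33 (SE 0.10, adjusted p = 0.511, limma), while a second Siglech probe, detected in 2 het and 4 wt brains, differed by −0.21. Laptm5, a lysosomal protein of blood-derived cells, read 9.46, 9.50, 9.45 and 9.45 in the het arrays, against 9.38, 9.18, 9.34 and 9.29 in the wt arrays, a difference of 0.17 (SE 0.08, adjusted p = 0.716, limma). The groups did not overlap at the Laptm5 probe or the first Siglech probe. The complement genes C1qa, C1qb and C1qc and the receptor Trem2 differed by −0.07, −0.00068, 0.01 and 0.05. The summed microglial level was 1353 to 1375 in het and 1215 to 1331 in wt brains, the second list with a sum higher in every het array. Bright genes weigh most in such a sum, and Laptm5 made up a large part of this one. The median difference of the list was only 0.03.

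Of 13 tested astrocyte genes 1 was higher, Ndrg2 at 0.34, and 0 lower, with a median of −0.03, and Gfap averaged 5.38 ± 0.27 in het and 5.58 ± 0.10 in wt brains (SD, n = 4 each). Of 11 tested pan-neuronal genes 0 had an unadjusted p under 0.05, and 9 of 11 differences were positive, with a median of 0.07, or 0.0079 over all 15 probes of these genes. Of 13 endothelial, 5 mural and 9 meningeal genes tested, 0 reached that threshold, and their medians were 0.02, 0.04 and −0.08. Map2, a neuronal microtubule protein used here to check the tissue label, averaged 9.79 ± 0.14 in het and 9.59 ± 0.20 in wt brains (SD, n = 4 each), and its further probes differed by −0.41 and −0.05, although the probes for Snap25 and Nefl were not above background on any brain array. Of 7 pituitary genes with a probe 0 were tested, and markers of heart and kidney were at or near background, with 3 of 9 and 3 of 11 passing the filter.

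Some regional markers varied widely between single brains. Cdhr1, a gene of olfactory bulb mitral cells, read 7.56, 7.15, 5.86 and 6.77 in the het arrays, against 6.18, 6.40, 6.24 and 8.04 in the wt arrays. Wt replicate 4 was the highest array and het replicate 3 the lowest, so the range within each genotype exceeded the difference of 0.12. Doc2g, another olfactory bulb gene, was also highest in wt replicate 4, at 5.52, against 4.43 to 5.01 in het and 4.37 to 4.51 in the other wt brains. The summed olfactory bulb level was 152 to 299 in het and 151 to 404 in wt brains. Hoxa5, a homeobox gene of hindbrain and spinal cord, read 5.11, 6.46, 4.21 and 5.86 in the het arrays, against 5.72, 6.25, 6.64 and 6.00 in the wt arrays. Hoxb5, its relative, read 5.43, 6.36, 4.37 and 6.29 in the het arrays, against 6.19, 6.20, 6.56 and 6.07 in the wt arrays. Het replicate 3 was the lowest array for both Hox genes and for Cdhr1, and het replicate 1 was the second lowest for both Hox genes. These genes were picked for their spread after their values were seen, and what part of the brain each sample held was not tested.

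Blood and choroid plexus genes varied in the same way. S100a8, a neutrophil protein, read 7.12, 5.80, 5.93 and 6.17 in the het arrays, against 6.93, 5.81, 7.14 and 5.97 in the wt arrays. It was high in het replicate 1 and wt replicates 1 and 3 and low in the other brains, and S100a9 was highest in the same 3 arrays. Ttr, the transthyretin gene of choroid plexus, averaged 11.64 ± 0.06 in het and 11.82 ± 0.35 in wt brains (SD, n = 4 each), with a span of 11.36 to 12.18 among wt brains. Medians of the lists were −0.14 over 5 tested blood genes and −0.05 over 10 choroid plexus genes, with 0 at an unadjusted p under 0.05 in each. Over all probes the median SD within a genotype was 0.144, and 7 probes exceeded 0.5. Gripap1, which encodes a protein of endosome trafficking, was one of them: it read 9.09, 8.98, 8.90 and 9.13 in the het arrays, against 7.44, 9.03, 9.04 and 8.95 in the wt arrays. Wt replicate 1 alone was low.

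Of the other regional lists, cortical genes had a median of 0.08 with 1 of 8 tested genes higher at an unadjusted p under 0.05, the neuronal factor Mef2c at 0.28, which was 0.11 beside the array number. Hippocampal genes had a median of 0.04 with 1 of 5 higher, the factor Neurod2, which read 4.93, 5.01, 5.15 and 5.11 in the het arrays, against 4.74, 4.55, 4.77 and 4.87 in the wt arrays, a difference of 0.32 (SE 0.09, adjusted p = 0.511, limma). Its groups did not overlap, at a level close to background. Striatal and thalamic genes each had 1 lower gene, Drd2 as above and Ramp3 at −0.22, and medians of −0.05 and −0.03. Over all 12 striatal probes 1 was higher and 1 lower at that threshold, with a median of 0.01. The higher one, named after its values were seen, was a further Ppp1r1b probe at 0.43 with groups apart. Cerebellar genes had 0 of 9 at that threshold and a median of −0.09. Hypothalamic genes had 1 of 9 higher, Gal as above. Among Y-linked genes Eif2s3y was above background on all 8 arrays, at 6.69 ± 0.06 in het and 6.68 ± 0.17 in wt brains (SD, n = 4 each), while the Xist probe was detected on 0 arrays, in both genotypes alike.

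Genes that follow neuronal activity and stress at sacrifice were mixed in direction. Of 17 tested immediate early genes 1 was higher and 1 lower at an unadjusted p under 0.05, with a median of 0.02. Egr1, an activity-induced transcription factor, read 11.12, 11.38, 11.41 and 11.35 in the het arrays, against 11.19, 11.07, 11.07 and 10.67 in the wt arrays, a difference of 0.31 (SE 0.12, adjusted p = 0.574, limma). Npas4, another such factor specific to neurons, read 5.88, 5.35, 5.50 and 5.53 in the het arrays, against 6.06, 6.16, 5.79 and 5.53 in the wt arrays, a difference of −0.32 (SE 0.14, adjusted p = 0.679, limma). The signs were thus opposite for a pair of genes that the same stimuli induce. Of 15 tested glucocorticoid-responsive genes 1 was higher, the metabolic kinase Pdk4 at 0.25, with a median of 0.04. In the heat shock and unfolded protein list 2 of 22 were lower, the chaperone genes Calr at −0.30 and Hspa1a at −0.23, and the median was −0.06. Calr read 8.35, 8.01, 8.10 and 8.20 in the het arrays, against 8.39, 8.67, 8.40 and 8.39 in the wt arrays. Of 12 tested interferon-stimulated genes 0 reached the threshold, with a median of −0.04.

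Respiratory chain genes held few members apart, with a median near 0. Of 45 tested genes of complex I and ATP synthase 1 was higher and 3 lower at an unadjusted p under 0.05, 0 were called, and the median was −0.03. In 4 of 45, Ndufs4, Ndufa7, Ndufa12 and Atp5g3, the het values lay wholly below the wt values, against 2.07% of all probes. Atp5pb, of the ATP synthase stalk, read 9.70, 9.44, 9.37 and 9.30 in the het arrays, against 9.98, 9.90, 9.65 and 9.69 in the wt arrays, a difference of −0.35 (SE 0.11, adjusted p = 0.512, limma). Beside the array number it was −0.17. Ndufs4 and Ndufa7, subunits of complex I, differed by −0.22 and −0.21, whereas Ndufb9, also of complex I, differed by 0.33. Further Ndufs4 probes differed by −0.07, 0.04 and 0.02, with overlapping groups. The summed level was 78820 to 79820 in het and 80840 to 81860 in wt brains, the 1 list of 41 whose sum was lower in every het array. Cholesterol synthesis genes had 0 higher and 1 lower of 17, the regulator Insig1 at −0.33, and a median of −0.04. Further Insig1 probes differed by 0.21 and −0.24. Nsdhl differed by −0.19, and by −0.43, −0.34 and −0.12 at its further probes. Ribosomal protein genes had 2 higher and 0 lower of 57 and a median of 0.004.

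Over the 41 lists with a tested member, 579 genes in all, 0 members were called and list medians ran from −0.14 for blood to 0.12 for the Y-linked genes. In 17 of 41 lists 0 members had an unadjusted p under 0.05. With the arrays shifted to a common median in place of quantile normalization, the median over all probes was −0.05, and the small positive medians of 13 lists became negative: Wnt, cAMP, immediate early, glucocorticoid, clock, GABA, channels, monoamine and acetylcholine, ribosomal, microglia, endothelium, mural cells and hippocampus. Counts also moved when all probes of a gene were taken. At an unadjusted p under 0.05, 3.26% of all probes were higher and 3.84% lower. Of 20 myelin probes 6 were lower and 0 higher. The lower ones included a pair of Mog probes and the Mbp probe ranked first above, so they are not separate genes. Of 29 heat shock probes 4 were lower and 0 higher, and of 24 cholesterol synthesis probes 3 were lower and 0 higher. Of 32 glutamate probes 4 were higher and 2 lower, of 45 channel probes 1 was higher and 6 lower. Of 40 Wnt probes 3 were higher and 2 lower. A further 8 probes were above background in all brains of 1 genotype and in none of the other. Rbm12 and Trim9 were detected in 4 het and 0 wt brains, and 6 probes in 0 het and 4 wt brains, all at levels close to background with adjusted p-values of 0.496 to 0.636. No fold is given for them.

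The genotype difference was set against that of kidney and heart in the same 8 mice, through the difference between tissues within each mouse. Between brain and kidney, 4 of 9755 probes (0.041%) differed in their genotype effect at an adjusted p under 0.05, and 690 (7.07%) at an unadjusted one. In all 4 the difference was near 0 in brain and past the threshold in kidney. For Clu, encoding the secreted chaperone clusterin, the brain values were 11.26, 11.36, 11.45 and 11.38 in the het arrays, against 11.49, 11.54, 11.23 and 11.40 in the wt arrays, a difference of −0.05. In kidney Clu averaged 10.02 ± 0.13 in het and 8.74 ± 0.13 in wt mice (SD, n = 4 each), a difference of 1.28 (SE 0.11), and in heart it differed by −0.01 (SE 0.08). Brain minus kidney came to −1.31 for Clu (adjusted p = 0.00206, limma). For Pvalb, a calcium buffer of fast-spiking interneurons and of the distal tubule, the brain values were 12.28, 12.41, 12.48 and 12.37 in the het arrays, against 12.34, 12.47, 12.47 and 12.41 in the wt arrays, a difference of −0.04. In kidney Pvalb averaged 9.47 ± 0.08 in het and 10.61 ± 0.02 in wt mice (SD, n = 4 each), a difference of −1.14 (SE 0.09), and brain minus kidney came to 1.04 (adjusted p = 0.00494, limma). Brain ranges of both genes overlapped between genotypes. The count of 4 was 2 without het replicate 3, 12 without wt replicate 4, and 1, Clu, with the array number in the fit.

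Slc6a12, a betaine and GABA transporter, differed by 0.17 in brain and −0.83 (SE 0.11) in kidney (adjusted p = 0.0111 for the difference). Sfrp1, a secreted Wnt antagonist, differed by 0.12 in brain and −0.85 (SE 0.14) in kidney (adjusted p = 0.0229 for the difference). Leaving out any mouse but wt replicate 4 ended the call of Sfrp1, and leaving out het replicate 2 or 3 that of Slc6a12. Between brain and heart 0 of 10476 probes (0%) differed at an adjusted p under 0.05 with limma, and 533 (5.09%) at an unadjusted one. Of the leading lower brain probes 10 were tested in kidney and 7 had the same sign there, and of the higher ones 7 were tested and 3 had the same sign. In heart these counts were 7 of 11 and 6 of 9. Since these probes were ranked on their brain values, their brain minus kidney differences are not independent of that choice, and 0 of them were called. Cyb5a came closest, at −0.49 in brain and 0.34 (SE 0.09) in kidney, with an adjusted p of 0.0554.

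**Figure D4:**
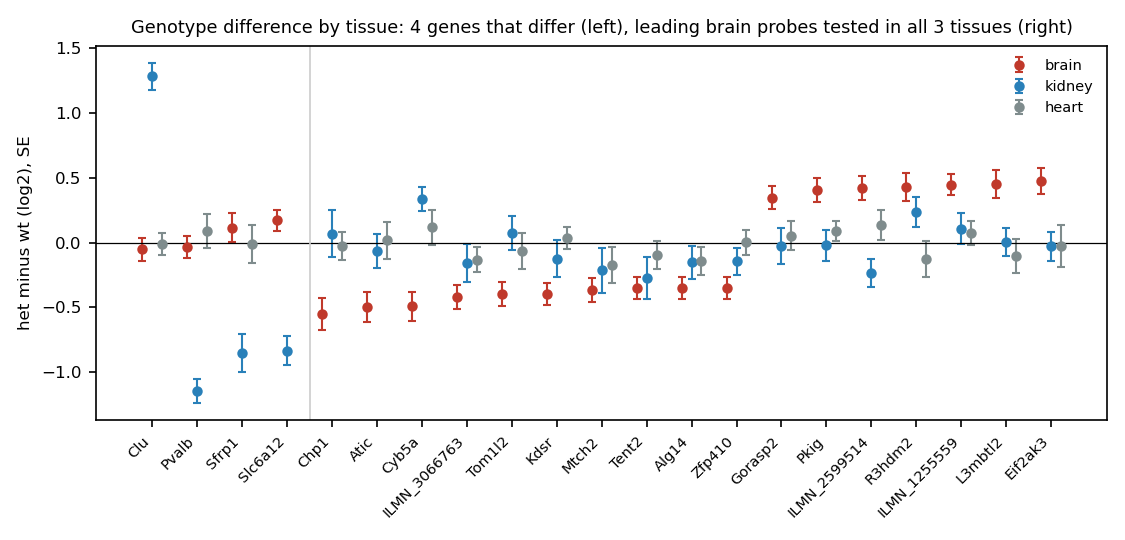
Difference between het and wt mice (y axis, het minus wt, log2, bars are SE, 4 mice a group) in brain (red), kidney (blue) and heart (grey) for the 4 probes whose genotype effect differed between brain and kidney (left of the line) and the 17 leading brain probes tested in all 3 tissues (right). Clu, Pvalb, Sfrp1 and Slc6a12 stand away from 0 in kidney and near 0 in brain; Slc6a12 was not tested in heart.

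The position of an array in the tissue's numbering went with expression as well. In the fit that held both terms, 4 of 12608 probes (0.0317%) changed with the array number at an adjusted p under 0.05, and 1383 (11%) had an unadjusted p under 0.05, 671 with a positive slope (5.32%) and 712 with a negative one (5.65%). Lypla1, an acyl-protein thioesterase, fell by 0.17 per step (adjusted p = 0.0339, limma), and Atp6ap2, an accessory subunit of the vacuolar proton pump, fell by 0.15. Nsmf, a protein that signals from NMDA receptors to the nucleus, rose by 0.14 per step, and ILMN_3140473 fell by 0.16. Leaving out any 1 array ended all 4 of these calls, with 0 left in each case. The mean array number was 5.75 in het and 3.25 in wt brains.

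Clock genes are known to follow the time of day, and several had a slope on the array number. By genotype, 1 of 17 tested clock genes had an unadjusted p under 0.05, Bhlhe40, a repressor of the clock, at 0.21, and the median was 0.0067. One probe of Per1, a core repressor of the clock, read 6.96, 7.45, 7.63 and 7.87 in the het arrays, against 6.89, 7.19, 7.34 and 7.28 in the wt arrays. Its difference of 0.30 became −0.03 beside the array number, against a slope of 0.13 per step (adjusted p = 0.088, limma). The second Per1 probe had a slope of 0.14. By 1 probe per gene, 5 of 17 clock genes had a positive slope and 3 a negative one at an unadjusted p under 0.05. Over all probes these shares were 5.32% and 5.65%. Arntl, the activator that opposes Per1 in phase, had a slope of −0.09. The labels give no time of sacrifice, and what the array number stands for was not tested.

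**Figure D5:**
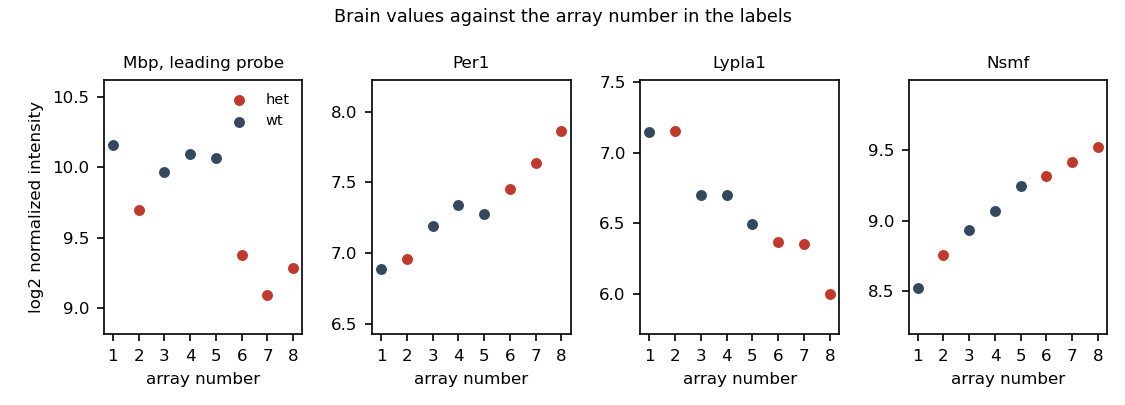
Log2 normalized intensity (y axis) of 4 probes in each of 8 brains against the array number in the labels (x axis), het in red and wt in dark blue. Per1 and Nsmf run higher and Lypla1 lower toward later numbers, while the Mbp probe separates het number 2 from its wt neighbours 1 and 3.

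Along the leading axis of a principal component analysis, which held 22.1% of the variance, the arrays averaged 4.80 ± 10.0 in het and −4.80 ± 4.04 in wt brains (SD, n = 4 each; exact two-sided permutation p = 0.143). The arrays lay on this axis in the order of their array numbers, from −9.48 at number 1 to 15.2 at number 8. Het replicate 1, array number 2, lay at −8.71 among the wt arrays, and the other het brains lay at 4.43 to 15.2. Without that brain the groups did not overlap (exact permutation p = 0.0286, the smallest that the splits of 7 arrays allow). It was the only het array among the wt arrays, so this separation follows from the choice and is no independent result. On leaving out any other array the exact permutation p was 0.143 to 0.571. With het replicate 1 left out, array number and genotype cannot be told apart on this axis.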

How the data were processed

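Biotin-labelled cRNA, made from total RNA of brain, kidney and heart of 8 mice, was measured on Illumina bead arrays, per the labels. What the authors deposited is, going by the file headers, the unnormalized intensity of each probe beside its detection p-value. The submitters' processing notes name GenomeStudio 2011.1 without saying for which step. A deposited series matrix gives processed values of the same arrays and was used as an alternative. Of 25697 probes, 23978 had 1 gene symbol in the platform annotation, 0 several and 1719 none.

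Intensities of the 8 brain arrays were background-corrected from the detection p-values and quantile-normalized with neqc (limma 3.58.1 in R 4.3.3, offset 16), which gave log2 values; small differences are compressed near background. Probes above background (detection p below 0.05) on 4 or more of 8 arrays were tested with lmFit and eBayes, het minus wt, adjusted by Benjamini-Hochberg over all tested probes at 0.05. Array number was added as a covariate in a second fit. For the tissue comparison, 24 arrays were normalized together and differences within each mouse were fitted. Values per array were compared by an exact permutation test over 70 splits. The self-test ran on simulated data. Arrays are separate mice, and their number limits the precision; 0 arrays were dropped or imputed, and 0 pairs were identical.

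Named genes were the called probes, then up to 14 per direction with the smallest limma p among probes detected on all 8 arrays with non-overlapping groups, every measured KCTD gene, and per list the 3 genes with the largest absolute difference and those at an unadjusted p under 0.01. Genes named for another reason are named in the text as chosen after their values were seen, or are further members of a list given for their role. The members, the gene lists (20 pathway lists and 22 marker lists) and the rules were chosen with earlier results of these data known. Summed levels are sums of 2 to the power of the log2 level over the tested genes of a list. Bright genes weigh most in these sums. Alternatives covered background correction, scaling, offset, filter, spread, weights, array number, a replicate block, the series matrix values and leaving out each array.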

Additional observations from a re-analysis of the deposited data

Results flagged for a closer look

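Among 312 groups of 4 brains, from 154 named probes and from the detected probes and median intensity of each array, 17 (5.45%) held 1 array far from the other 3, where chance gives about 1 in 20. Of these, 7 were in het and 10 in wt brains. Het replicate 1 was low at Doc2b (6.72) and at ILMN_1239859 (6.14). Het replicate 2 was high at Pdk4 (6.14) and low at Ppp1r17 (4.21), a Purkinje cell gene. Het replicate 3 was high at Gal (5.51), and het replicate 4 was high at Zfp410 (5.17) and low at Dynlrb2 (5.37). Wt replicate 4 accounted for 7 of the 17: it was high at Cdhr1 (8.04, others 6.18 to 6.40), Doc2g (5.52), Gfap (5.72) and Nppa (4.91), and low at Kctd10 (8.17), Itm2a (8.27) and Zic4 (5.48). Cdhr1 and Doc2g are olfactory bulb genes and Zic4 was listed as a thalamic one. Wt replicate 1 was high at Cyb5a (6.14) and low at Kctd21 (6.04), and wt replicate 2 was high at Calr (8.67).

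The genotype effect differed between brain and kidney, by a test of the difference within mice, at 4 probes. Brain minus kidney was −1.31 for Clu, 1.04 for Pvalb, 0.94 for Sfrp1 and 1.11 for Slc6a12 on the log2 scale. What sets the tissues apart was not tested.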

How the results depend on the processing

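Probes called between het and wt brains numbered 0, but 1 (Mbp) with an offset of 50, 1 (Mbp) with a trended and robust spread, and 3 (Mbp, Kcnip4, Tro) with the spread shared over 24 arrays; leaving out 1 array gave 0 to 1, the 1 without het replicate 1. With the replicate number as a block 0 were called; same-numbered brains deviated together at 0.0098 to 0.086 only, so the numbers were not taken as pairs. Without the detection filter, 1591 of 25697 probes had an unadjusted p under 0.05. Among the 12608 probes that passed the filter, 895 did in the main fit and 707 to 1240 on leaving out 1 array. The totals differ, so the unfiltered count is not set against the others. The brain minus kidney count of 4 was 8 without background correction, 25 with arrays of a mouse taken as independent, 1 beside the array number, and 2 to 12 on leaving out 1 mouse; the brain minus heart count was 0 throughout. The array number count of 4 was 16 without background correction, 30 with array number alone, and 0 on leaving out any array. Arrays shifted to a common median had an all-probe median of −0.05 and list medians of −0.0775 (KCTD family), −0.0367 (Wnt), −0.0488 (GABAB), −0.0387 (immediate early), −0.0487 (clock), −0.0775 (glutamate), −0.0326 (GABA), 0.0119 (vesicle release), −0.0197 (channels), −0.119 (heat shock), −0.0722 (respiratory chain), −0.0392 (ribosomal), −0.0735 (astrocytes), −0.0177 (microglia) and −0.139 (meninges). Over all probes of a gene, medians were 0.0245 (monoamine and acetylcholine) and 0.0079 (neurons). The difference in median intensity, −1.61 over all arrays, ran from −2.80 to 0.47 on leaving out 1 array, and that of the first principal component, 9.59, was 4.99 without background correction and 3.79 to 15.1 on leaving out 1 array. The 28 leading probes kept their sign in all 22 alternatives. They were chosen for groups that do not overlap, which favours a kept sign, so this is no independent support. Of the 146 other named probes, not chosen that way, 42 changed sign in at least 1, the largest of them differing by 0.304 in size (Per1). The causes were not tested. Dim probes limit the fold that can be read.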

Other observations

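A few single genes varied widely among brains of 1 genotype without following the groups; they were picked for that spread after their values were seen. S100a5, an olfactory calcium-binding protein, was at 4.72, 5.33, 4.21 and 4.79 in the het arrays, against 5.86 in wt replicate 4 and at most 4.45 in the other wt arrays, so wt replicate 4 was its highest array, as at Cdhr1 and Doc2g. Ptgds, the prostaglandin D synthase of meninges and choroid plexus, was at 8.83, 9.36, 9.54 and 9.01 in the het arrays and at 9.21, 8.41, 9.30 and 9.83 in the wt arrays, with a genotype difference of −0.00098. Gripap1 had a second probe at 7.33, 7.32, 7.27 and 7.58 in the het arrays and at 6.15, 7.23, 7.36 and 7.58 in the wt arrays, so wt replicate 1 was low at both probes of this gene. The 8 probes detected in 1 genotype alone were Rbm12 and Trim9 in het brains, and Baiap2, Fam118a, Naa80, Pi4kb, Pik3c2a and Vldlr in wt brains.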
